A study of Homo sapiens with 6 samples.

Results

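The 10 genes described here hold, take up, release and sense iron in human cells, and were followed in NCI-H69, an established neuroendocrine small cell lung cancer line. They were taken by symbol, 10 of 60671 gene rows, by a rule that uses no measured value. Earlier results of these data were, however, known when they were chosen. They comprise the ferritin chains FTH1 and FTL, the ferritin receptor NCOA4, the uptake genes TFRC, TFR2, STEAP3 and SLC11A2, the exporter SLC40A1 and the sensors IREB2 and ACO1. RNA sequencing libraries came from NCI-H69 cells given the allosteric ABL kinase inhibitor GNF5 at 20 µM for 48 h (3 libraries) and from cells given its vehicle DMSO for 48 h (3 libraries). All 6 come from this 1 line, labelled wild type, and the labels do not tell whether replicates came from separate cultures. The p-values therefore rest on a spread between libraries that may be technical.

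Iron enters most cells bound to transferrin, which the receptor encoded by TFRC carries into endosomes, where a STEAP reductase and the transporter DMT1 pass it to the cytosol. Iron that is not used is stored inside ferritin, a shell of heavy (FTH1) and light (FTL) chains, and is recovered when NCOA4 takes ferritin to the lysosome. The iron regulatory proteins, encoded by ACO1 and IREB2, bind a hairpin called the iron responsive element when iron is scarce: binding near the start of the ferritin messages blocks their translation, and binding in the tail of the TFRC message protects it from decay. RNA counts do not measure translation.

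The hairpins are shown first because they are the feature through which the iron sensors are known to read messages of iron genes, and those of 4 members that the search found are printed. GENCODE 29 transcripts on GRCh38 were searched on the transcribed strand for a C, 5 bases, the loop CAGTGN (or the variant loop CAGAGN) and 5 further bases able to pair with the first 5, GT pairs allowed. Sequences are given 5′ to 3′ as DNA, 30 bases each, with the 6-base loop in capitals.
FTH1, 5′ untranslated region, chr11:61967573-61967602, minus strand: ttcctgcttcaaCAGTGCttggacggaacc
FTL, 5′ untranslated region, chr19:48965335-48965364, plus strand: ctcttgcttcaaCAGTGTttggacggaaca
SLC40A1, 5′ untranslated region, chr2:189580660-189580689, minus strand: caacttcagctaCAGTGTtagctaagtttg
TFRC, 3′ untranslated region, chr3:196051028-196051057, minus strand: atttatcagtgaCAGAGTtcactataaatg
TFRC, 3′ untranslated region, chr3:196050978-196051007, minus strand: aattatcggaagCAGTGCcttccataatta
TFRC, 3′ untranslated region, chr3:196050574-196050603, minus strand: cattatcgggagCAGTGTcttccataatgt
TFRC, 3′ untranslated region, chr3:196050509-196050538, minus strand: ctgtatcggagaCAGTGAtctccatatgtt
TFRC, 3′ untranslated region, chr3:196050462-196050491, minus strand: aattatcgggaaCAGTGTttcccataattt

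The ferritin hairpins of FTH1 and FTL were identical at 26 of 30 positions. FTH1 and SLC40A1 shared 13 of 30. The 5 TFRC hairpins lay within 596 bases of the tail of its message, and pairs of them shared 16 to 25 of 30 positions. A hairpin with the loop CAGTGN was found in a 5′ untranslated region of 0.183% of 19644 protein-coding genes and in a 3′ untranslated region of 0.672%. STEAP3 held 1 hairpin with the variant loop CAGAGN in its 3′ untranslated region, a match found in 0.631% of genes. The search found no such hairpin in NCOA4, TFR2, SLC11A2, IREB2 or ACO1, which says only that these letters and pairs are not there: SLC11A2 is known to have message forms with an iron responsive element in the 3′ untranslated region. The files count reads per gene, so message forms of 1 gene with and without a hairpin were not separated.

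**Figure D1:**
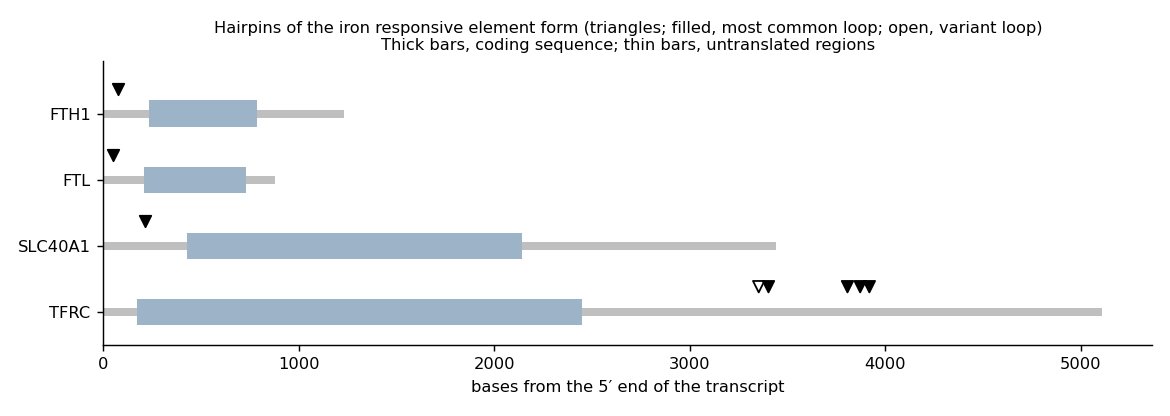
Hairpins of the iron responsive element form along 1 transcript of each gene, with the distance from the 5′ end in bases on the horizontal axis; thick bars are coding sequence, thin bars untranslated regions, filled triangles hairpins with the loop CAGTGN and the open triangle the loop CAGAGN. FTH1, FTL and SLC40A1 each hold 1 hairpin ahead of the coding sequence, and TFRC holds 5 behind it.

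With GNF5, both ferritin chains, NCOA4, TFRC and SLC11A2 were higher than with DMSO, and STEAP3 and ACO1 were lower. The change in FTH1 stood out, at 1.77-fold. The others were small, from 1.09-fold to 1.33-fold for the remaining higher genes and 0.846-fold and 0.83-fold for STEAP3 and ACO1. IREB2 and TFR2 did not pass the test, and SLC40A1 was almost silent in both groups. Levels below are CPM, a gene's counts scaled to its library's total after TMM normalisation, and changes are log2 fold changes, GNF5 against DMSO, with their standard error (SE). A gene was called at an adjusted p under 0.05 in edgeR's quasi-likelihood test over 20734 genes.

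Of the 10 genes, 9 passed the filter on low counts and were tested: 5 were called higher, where 31.0% of all tested genes were, and 2 lower, where 30.7% were. Together 7 of 9 were called, against 61.6% of all tested genes, so most genes of this transcriptome were called and the count is to be read against that. The groups did not overlap for 8 of the 9, against 65.9% of all tested genes. The median log2 change of the 9 genes was 0.14, against 0.01 over all tested genes, and the median size regardless of sign was 0.22, against 0.34. All tested genes include genes of low level, whereas each tested member except ACO1 and TFR2 exceeded 82.1% of them in mean level. Under a stricter filter (1 CPM in 3 libraries), 5693 of 15675 genes were called higher and 5670 lower, with 5 and 2 members. The comparisons were not matched for level. FTH1 changed by more than 82.9% of tested genes and SLC11A2 by more than 58.5%, while no other member exceeded 42.0%. In bulk samples, less RNA per cell and fewer cells of a kind cannot be told apart, and CPM show a gene's share of the counts, not its amount per cell.

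**Figure D2:**
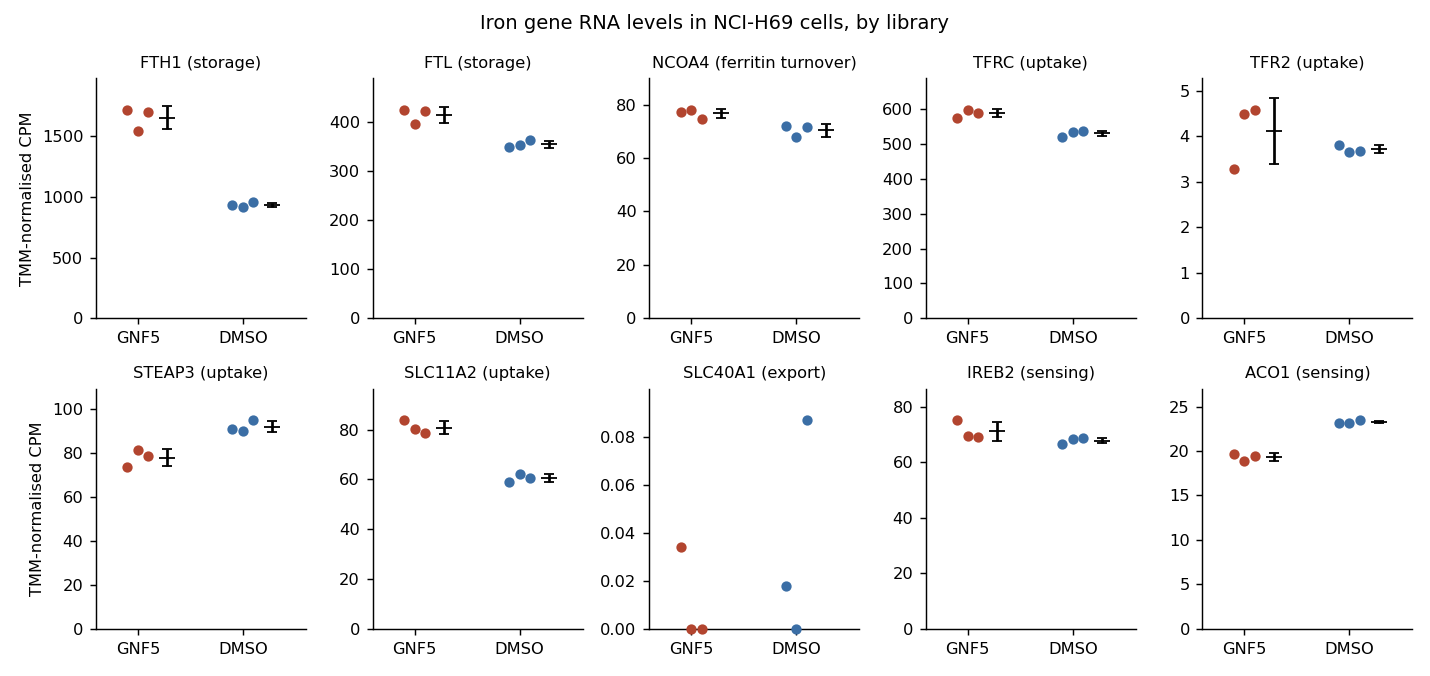
TMM-normalised CPM of the 10 genes in each library, GNF5 left and DMSO right, on axes that start at 0; points are libraries, and bars beside them give the mean and SD of 3 libraries (not drawn for SLC40A1). The GNF5 points of FTH1 lie between 1543 and 1719 CPM, all above the DMSO points, and those of STEAP3 and ACO1 lie below theirs.

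Total counts per library were 46148701 to 58771023 with GNF5 and 56467189 to 60697602 with DMSO, so that 3 counts, the limit below which a gene counts as not detected, stood for 0.0494 to 0.065 CPM, counting error only. All 10 neuroendocrine markers of the line were detected and tested, with a summed level of 4491 to 4625 CPM with GNF5 and 3799 to 3889 CPM with DMSO. Other cell types that handle much iron were followed by their markers. The 8 erythroid markers summed to 6.23 to 7.61 CPM with GNF5 and 5.67 to 6.42 CPM with DMSO. Most of it was EPOR, at a mean of 6.49 CPM with GNF5 and 5.73 CPM with DMSO. HBB, ALAS2 and GATA1 were among those at 0 counts, and SLC4A1 was called higher (0.311 CPM with GNF5, 0.081 CPM with DMSO). The 7 macrophage and leukocyte markers summed to 3.49 to 4.41 CPM with GNF5 and 4.69 to 5.08 CPM with DMSO. Most of it was CD14 (3.31 CPM with GNF5, 3.08 CPM with DMSO), and CD163 and CD3E were at 0. PTPRC was called lower (0.35 CPM with GNF5, 1.63 CPM with DMSO) and CSF1R higher (0.379 and 0.126 CPM). The 6 hepatocyte markers summed to 2.55 to 2.98 CPM with GNF5 and 2.14 to 2.62 CPM with DMSO, with APOB at 0. The highest of them, SERPINA1, was called higher (1.78 CPM with GNF5, 1.19 CPM with DMSO). The 6 fibroblast markers summed to 64.8 to 72.0 CPM with GNF5 and 120.2 to 125.9 CPM with DMSO, nearly all of it COL1A2, with COL3A1 at 0 counts. COL1A2 was called lower (63.5 CPM with GNF5, 119.2 CPM with DMSO) and COL1A1 higher (5.28 and 2.89 CPM). PDGFRB, near the floor, was called lower (0.087 and 0.34 CPM), and LUM did not pass. The part of these marker differences in the iron results was not tested.

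Storage genes came out higher, and the heavy chain more so than the light chain. FTH1 (ENSG00000167996, chromosome 11, 61959718 to 61967634, GRCh38), whose product oxidises iron as it enters the shell, had 1719, 1543 and 1700 CPM in the GNF5 libraries, against 931.5, 919.4 and 955.1 CPM in the DMSO libraries. Every GNF5 library was above every DMSO library, by a margin far wider than the spread within either group. The log2 fold change was 0.82 ± 0.037 (SE), with an edgeR adjusted p of 2.85e-17. FTL (ENSG00000087086, chromosome 19, 48965309 to 48966879), the chain that helps the iron core form, had 425.6, 397.1 and 422.5 CPM in the GNF5 libraries, against 349.1, 353.7 and 362.8 CPM in the DMSO libraries. Again the groups were apart, but by less, with a log2 change of 0.22 ± 0.033 (edgeR adjusted p = 1.22e-06).

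The balance between the chains can be read within a library and so does not depend on scaling. There were 4.04, 3.89 and 4.02 FTH1 counts per FTL count in the GNF5 libraries, against 2.67, 2.60 and 2.63 in the DMSO libraries. These are ratios of counts, and the annotated exon length is 2004 bases for FTH1 and 871 for FTL. Per kilobase of exon, the ratios were 1.76, 1.69 and 1.75 with GNF5 and 1.16, 1.13 and 1.14 with DMSO. The ratio of counts was higher in 3 of 3 GNF5 libraries than in any DMSO library, and its log2 averaged 1.99 ± 0.031 with GNF5 and 1.40 ± 0.019 with DMSO (SD, n = 3 each). The difference of 0.60 corresponds to a 1.51-fold change of the ratio, with an exact two-sided permutation p of 0.1, the smallest that 3 against 3 libraries can give.

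**Figure D3:**
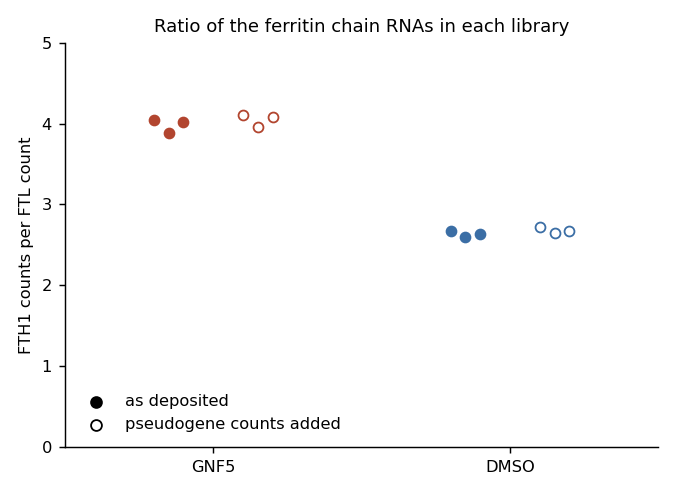
FTH1 counts per FTL count in each library, GNF5 left and DMSO right, on an axis that starts at 0; filled points use the counts as deposited and open points add the counts of the named pseudogenes of each chain. With either count the GNF5 libraries lie near 4 and the DMSO libraries between 2.60 and 2.72.

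Ferritin genes have many processed copies, which makes their counts uncertain, since reads that fit several places are not counted by the default used. The annotation names 25 FTH1 pseudogenes, 17 of them with a count, and 16 FTL pseudogenes, 7 of them with a count. Counts placed on the FTH1 copies were 4.51% to 4.92% of the sum of gene and copies with GNF5 and 4.55% to 4.82% with DMSO. For FTL the share was 3.03% to 3.19% with GNF5 and 2.91% to 3.15% with DMSO. The ranges of the groups overlapped, and with these counts added the difference in the log2 ratio was 0.59. Adding them does not bring back reads left out for fitting several places, so the part of those reads was not tested. Of the 12 FTH1 pseudogenes that could be tested, 11 were called higher and 0 lower, where 31.0% and 30.7% of all tested genes were. Their median log2 change was 0.80, close to that of FTH1, whose reads they may partly hold. Of the 3 FTL pseudogenes tested, 1 was called higher and 0 lower, with log2 changes from -0.55 to 0.33 (median 0.18).

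On the opposite strand, 63.2% of the exon bases of FTH1 lie in exons of BEST1, a chloride channel gene. Counting was by strand, and BEST1 had 1540, 1515 and 1583 counts in the GNF5 libraries, against 354, 396 and 416 counts in the DMSO libraries. These were 1.53% to 2.12% of the FTH1 counts with GNF5 and 0.673% to 0.756% with DMSO. BEST1 itself was called higher, with a log2 change of 2.15 ± 0.078 (edgeR adjusted p = 1.84e-19). The part of this overlap in either change was not tested. No member shared exon bases with another gene model on its own strand.

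NCOA4 (ENSG00000266412, chromosome 10, 46005088 to 46030714), the receptor that brings ferritin to autophagosomes, had 77.3, 78.1 and 74.8 CPM in the GNF5 libraries, against 72.1, 67.7 and 71.7 CPM in the DMSO libraries. The groups did not overlap, but the gap between them was smaller than the range within either. Its log2 change was 0.12 ± 0.04 (edgeR adjusted p = 0.0093). Without DMSO replicate 2, the lowest library, it was 0.09 and the call was lost (edgeR adjusted p = 0.0829, over a range of 0.0093 to 0.0829 for all settings tried).

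Among the uptake genes, the receptor moved slightly up, the transporter more, and the endosomal reductase down. TFRC (ENSG00000072274, chromosome 3, 196027183 to 196082096), the transferrin receptor, had 575.8, 598.7 and 590.5 CPM in the GNF5 libraries, against 521.5, 534.6 and 536.2 CPM in the DMSO libraries. All GNF5 libraries were above all DMSO libraries, yet the difference was only 1.11-fold, a log2 change of 0.15 ± 0.031 (edgeR adjusted p = 0.000172). SLC11A2 (ENSG00000110911, chromosome 12, 50979401 to 51028566), which encodes the iron transporter DMT1, had 83.7, 80.2 and 78.6 CPM in the GNF5 libraries, against 59.1, 62.3 and 60.4 CPM in the DMSO libraries. Here the gap between the groups was several times the spread within them, with a log2 change of 0.42 ± 0.04 (edgeR adjusted p = 4.97e-10).

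STEAP3 (ENSG00000115107, chromosome 2, 119223831 to 119265652), a reductase that turns ferric into ferrous iron in endosomes, had 73.6, 81.3 and 78.8 CPM in the GNF5 libraries, against 91.0, 90.1 and 94.97 CPM in the DMSO libraries. It was lower in every GNF5 library, with a log2 change of -0.24 ± 0.041 (edgeR adjusted p = 7.89e-06). On the opposite strand STEAP3-AS1 covers 10.96% of its exon bases and had at most 8 counts in any library. TFR2 (ENSG00000106327, chromosome 7, 100620416 to 100642779), the second transferrin receptor and best known from liver and erythroid cells, had 3.27, 4.48 and 4.58 CPM in the GNF5 libraries, against 3.81, 3.65 and 3.68 CPM in the DMSO libraries. One GNF5 library lay below the DMSO libraries and the other two above, and the gene did not pass (log2 fold change 0.14, 95% interval -0.12 to 0.40, edgeR adjusted p = 0.347). Without GNF5 replicate 1 it did (0.29, edgeR adjusted p = 0.0452, over a range of 0.0452 to 0.769 for all settings tried). Whether TFR2 was called thus depended on leaving that library out.

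The message of the exporter was at the edge of detection. SLC40A1 (ENSG00000138449, chromosome 2, 189560590 to 189583758), which encodes ferroportin, the known iron exporter of human cells, had 2, 0 and 0 counts in the GNF5 libraries and 1, 0 and 5 counts in the DMSO libraries. Summed over libraries this is 0.0127 CPM with GNF5 (95% exact Poisson interval 0.00154 to 0.0459) and 0.0344 CPM with DMSO (0.0126 to 0.0748), both covering counting error only. The intervals overlap and no change was detectable at this depth.

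Of the sensors, ACO1 was lower and IREB2 did not pass. ACO1 (ENSG00000122729, chromosome 9, 32384603 to 32454769), the cytosolic aconitase that becomes iron regulatory protein 1 on losing its iron-sulfur cluster, had 19.6, 18.8 and 19.5 CPM in the GNF5 libraries, against 23.2, 23.2 and 23.4 CPM in the DMSO libraries. The groups were well apart, with a log2 change of -0.27 ± 0.055 (edgeR adjusted p = 0.000108). IREB2 (ENSG00000136381, chromosome 15, 78437431 to 78501453), iron regulatory protein 2, had 75.1, 69.3 and 69.2 CPM in the GNF5 libraries, against 66.6, 68.2 and 68.6 CPM in the DMSO libraries. Although the GNF5 values all lay above the DMSO values, the nearest were less than 1 CPM apart, and the gene did not pass (log2 fold change 0.07, 95% interval -0.01 to 0.16, edgeR adjusted p = 0.14).

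**Figure D4:**
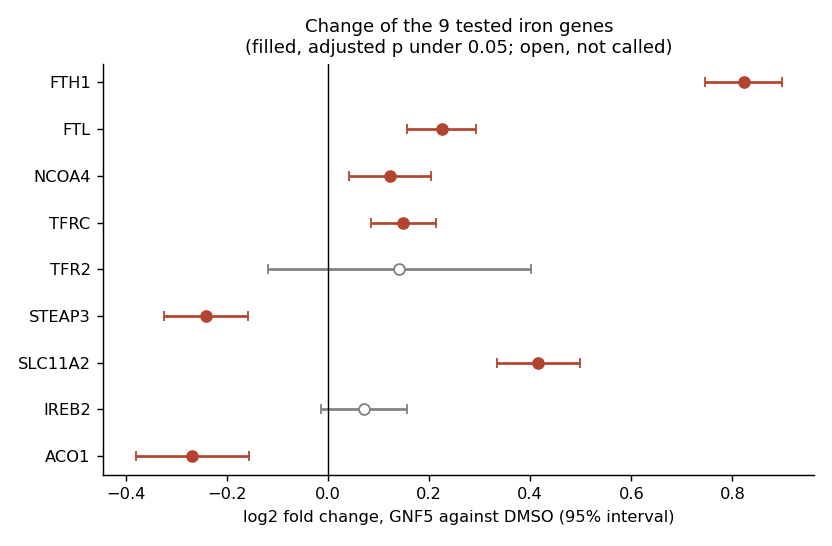
Log2 fold change, GNF5 against DMSO, of the 9 tested genes on the horizontal axis with its 95% interval from edgeR; filled points passed at an adjusted p under 0.05 and open points did not. FTH1 lies at 0.82, SLC11A2 at 0.42, and STEAP3 and ACO1 lie below 0.

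To compare genes with each other, CPM were divided by the annotated exon length in kilobases, which sums all exons of a gene and so understates genes whose main transcript is short. On that scale FTH1 led with 825.2 ± 48.2 CPM per kilobase with GNF5 and 466.7 ± 9.06 with DMSO (SD, n = 3 each). FTL followed with 476.5 ± 17.96 with GNF5 and 407.8 ± 7.97 with DMSO, and TFRC with 75.5 ± 1.49 with GNF5 and 68.1 ± 1.04 with DMSO. These 3 genes kept their order in every library of both groups. NCOA4 and STEAP3 changed places, at 18.8 ± 0.427 and 17.1 ± 0.853 CPM per kilobase with GNF5 and 17.3 ± 0.594 and 20.2 ± 0.563 with DMSO, without overlap of the libraries in either group. SLC11A2 and IREB2 lay at 8.18 ± 0.264 and 6.59 ± 0.311 with GNF5, but at 6.13 ± 0.161 and 6.28 ± 0.097 with DMSO, where their libraries overlapped. ACO1 came next with 2.55 ± 0.056 with GNF5 and 3.08 ± 0.02 with DMSO, followed by TFR2 with 0.812 ± 0.144 with GNF5 and 0.733 ± 0.016 with DMSO, and then SLC40A1.

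The wider iron system was described with 11 lists that hold 141 genes beside the members. Of 121 tested, 41 were called higher and 42 lower, against 31.0% and 30.7% of all tested genes, and the median log2 fold change was 0.00. The lists thus moved both ways in about equal number, as all tested genes did, and no list was tested as a set. The counts given below for each list are to be read against the same shares of all tested genes.

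Ferritin turnover and iron uptake outside the 10 genes followed no single direction. Of 5 tested genes of ferritin turnover, 2 were called higher, the autophagy adaptor TAX1BP1 (0.35 ± 0.043) and the autophagy initiation scaffold RB1CC1 (0.20 ± 0.036), and 1 lower, the autophagy membrane protein ATG9A (-0.33 ± 0.055). TAX1BP1, which is known to work with NCOA4 in ferritin delivery, had 111.6 ± 8.44 CPM with GNF5 and 87.8 ± 1.59 CPM with DMSO (SD, n = 3 each). Of 7 tested genes of uptake and reduction, 3 were called higher and 1 lower. The scavenger receptor LRP1 had a log2 change of 0.73 ± 0.057, the heme transporter SLC48A1 0.53 ± 0.051 and the metal transporter SLC39A14 0.20 ± 0.035. SLC46A1, a carrier of folate and heme, had 73.3 ± 3.38 CPM with GNF5 and 97.7 ± 2.59 CPM with DMSO. The other STEAP reductases STEAP1, STEAP2 and STEAP4 and transferrin itself (TF) were too low to test.

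Of 17 genes of receptor endocytosis and recycling, the route that TFRC takes, 4 were called higher and 9 lower (median -0.09). DNM2, the dynamin that cuts vesicles free, had 242.9 ± 2.19 CPM with GNF5 and 341.1 ± 2.67 CPM with DMSO, a log2 change of -0.49 ± 0.031. The clathrin adaptor subunit AP2A1 (-0.39 ± 0.036) was also lower. RAB12, a small GTPase known to steer the transferrin receptor to degradation, was higher (0.48 ± 0.039), as were PICALM, SNX3 and AP2A2 (0.22, 0.18 and 0.11). Of the 2 tested export genes, the heme exporter FLVCR1 was lower, with 63.7 ± 2.84 CPM with GNF5 and 96.0 ± 2.29 CPM with DMSO, and ABCB6 did not pass (0.01 ± 0.102). The ferroxidases CP and HEPH, partners of ferroportin, were too low to test.

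Among 11 genes that control the sensors, carry iron in the cytosol or degrade the TFRC message, 2 were called higher and 7 lower (median -0.17). The E3 ligase that removes IREB2 consists of FBXL5, the subunit that senses iron, with SKP1, CUL1 and RBX1. FBXL5 was slightly higher (0.16 ± 0.051), while RBX1 (-0.76 ± 0.046), SKP1 (-0.31 ± 0.034) and CUL1 (-0.20 ± 0.04) were lower. RBX1 had 44.7 ± 1.4 CPM with GNF5 and 75.7 ± 4.78 CPM with DMSO. Of the PCBP proteins, of which PCBP1 and PCBP2 are known to load iron into ferritin, PCBP2 was higher (0.25 ± 0.033) and PCBP1 (-0.12 ± 0.034) and PCBP4 (-0.34 ± 0.037) lower. RC3H1 and RC3H2, which encode the roquins that bind RNA hairpins and promote decay, were lower (-0.25 and -0.17), and ZC3H12A, a nuclease known to cut the TFRC message, did not pass (0.11 ± 0.17).

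Of 5 other messages reported to carry an iron responsive element, 3 could be tested, of which 2 were called higher and 1 lower. CDC42BPA, a kinase of the actin skeleton, had 161.1 ± 7.78 CPM with GNF5 and 97.5 ± 4.04 CPM with DMSO, a log2 change of 0.73 ± 0.039. CDC14A, a phosphatase, was lower by a little (-0.15 ± 0.06, edgeR adjusted p = 0.0306), a call lost in 5 of the settings tried, among them the fits without GNF5 replicate 2 (-0.14), GNF5 replicate 3 (-0.14) and DMSO replicate 1 (-0.13). EPAS1 and ALAS2 were too low.

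Mitochondrial iron genes moved both ways. Of 25 genes of iron import and iron-sulfur cluster assembly, 5 were called higher and 10 lower (median -0.10). Among the higher ones were the importers SLC25A37 (0.60 ± 0.081) and SLC25A28 (0.47 ± 0.075), the scaffold ISCU (0.88 ± 0.05) and the chaperone HSPA9 (0.77 ± 0.032). HSPA9, which releases clusters from ISCU, had 1307 ± 17.8 CPM with GNF5 and 763.7 ± 12 CPM with DMSO. Among the lower ones were IBA57, which acts late in cluster assembly, at -0.71 ± 0.055, ISCA2 at -0.55 and the carrier GLRX5 at -0.54. In the cytosolic assembly list 2 of 10 were higher, CIAO3 (0.47 ± 0.045) and NDOR1 (0.19 ± 0.048), and 4 lower, CIAO2A (-0.28 ± 0.044), CIAPIN1 (-0.24 ± 0.052), NUBP2 (-0.14 ± 0.04) and CIAO2B (-0.12 ± 0.05). The CIAO2B call was lost in 6 of the settings tried, including those without GNF5 replicate 2 (-0.08), GNF5 replicate 3 (-0.12), DMSO replicate 1 (-0.13) and DMSO replicate 3 (-0.11).

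Most heme genes that were called were higher. Of 15 genes of heme synthesis and breakdown, 8 were called higher and 2 lower (median 0.22), where 31.0% and 30.7% of all tested genes were. ALAS1, which catalyses the first step of heme synthesis, had 66.3 ± 3.45 CPM with GNF5 and 48.8 ± 2.19 CPM with DMSO, and FECH, which inserts the iron, had 75.1 ± 1.99 CPM with GNF5 and 59.1 ± 1.87 CPM with DMSO. HMOX1, the inducible heme oxygenase that frees iron from heme, was higher by 0.59 ± 0.086, while the constitutive HMOX2 was lower (-0.32 ± 0.048). BLVRB, a biliverdin reductase, had 4.79 ± 0.527 CPM with GNF5 and 0.936 ± 0.11 CPM with DMSO, a log2 change of 2.36 ± 0.153. TMEM14C, a porphyrin carrier, was the other lower gene (-0.13 ± 0.044), and its call was lost without GNF5 replicate 2 (-0.11) or DMSO replicate 1 (-0.10), which leaves 1 lower gene in this list.

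Of 15 tested genes of ferroptosis, the death by iron-driven lipid peroxidation, 8 were called higher and 4 lower (median 0.19). The cystine carrier subunits SLC3A2 and SLC7A11 (log2 fold changes 2.04 ± 0.059 and 1.58 ± 0.041) and CHAC1 (1.36 ± 0.069), which degrades glutathione, were higher. GPX4, the enzyme that repairs oxidised lipids, had 228.5 ± 4.97 CPM with GNF5 and 224.1 ± 3.74 CPM with DMSO and did not pass. The lower genes were ACSL3 (-0.94 ± 0.038), GCH1 (-0.52 ± 0.035), LPCAT3 (-0.34 ± 0.042) and ACSL4 (-0.19 ± 0.051). ACSL4 and LPCAT3 are known to load membranes with the lipids that oxidise, and ACSL3 and GCH1 to protect from this death.

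The hormone axis that acts on ferroportin was largely without its ligand. Hepcidin (HAMP), HFE and HJV were too low to test in these cells. Of 11 tested genes, 5 were higher, namely BMP2 (0.67 ± 0.056), BMPR2 (0.47 ± 0.045), ACVR1 (0.26 ± 0.081), SMAD4 (0.20 ± 0.033) and SMAD1 (0.19 ± 0.055), and 2 lower, ID1 (-0.84 ± 0.043) and BMP6 (-0.20 ± 0.038). The call of SMAD1 was lost without DMSO replicate 1 (0.14). ID1, a usual target of BMP signalling, had 80.7 ± 4.26 CPM with GNF5 and 144.4 ± 9.01 CPM with DMSO.

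**Figure D5:**
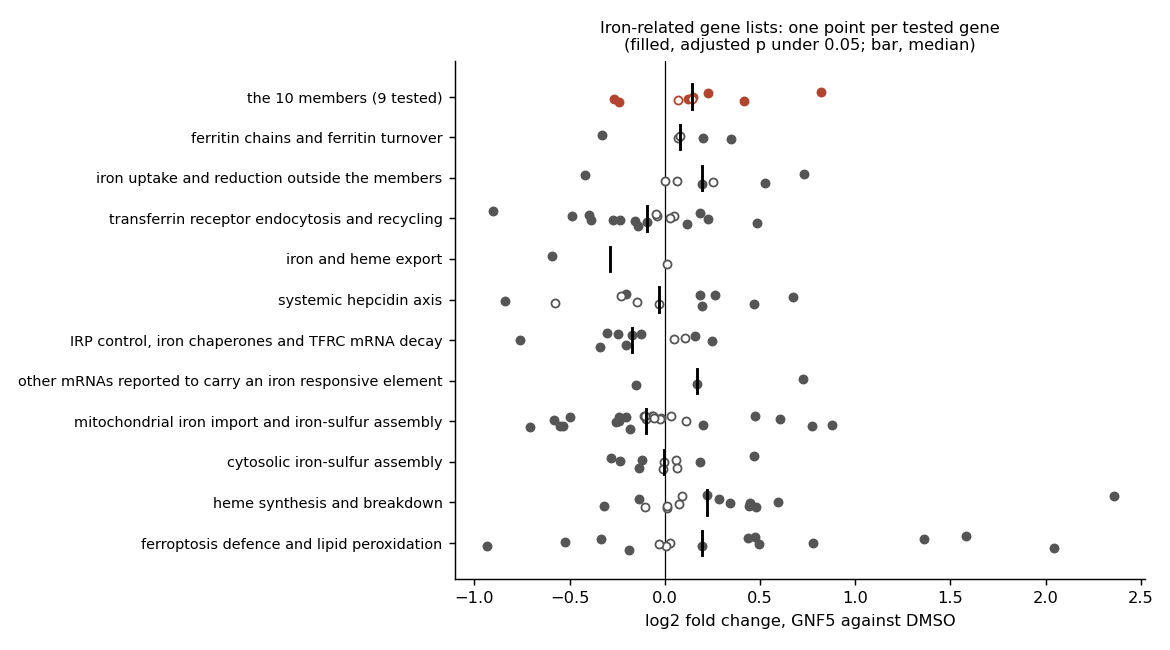
Log2 fold change, GNF5 against DMSO, of each tested gene (points) in the 10-gene group and in 11 lists of other iron-related genes; filled points passed at an adjusted p under 0.05, open points did not, and black bars are medians. BLVRB at 2.36 and SLC3A2 at 2.04 lie farthest to the right, and most lists have called genes on both sides of 0.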

How the data were processed

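RNA of 6 NCI-H69 samples, 3 with GNF5 and 3 with DMSO, was measured as raw counts per gene. Per the file headers, the authors assigned read pairs to genes with featureCounts 1.6.1, reverse-stranded, using exons of Ensembl release 101 (GRCh38), leaving out multi-mapped reads by default. HTSeq, STAR, Trim Galore, GRCh37 and DESeq2 appear, with no role, in the submitters' processing notes; the headers were followed. The labels give the GNF5 dose in micromolar per sample and in millimolar in the protocol; the value per sample was used and the conflict is unresolved.

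Symbols came from a gene name table (60401 of 60671 IDs matched; all 185 listed genes matched). The deposited counts were tested with edgeR 4.0.16 in R 4.3.3 (quasi-likelihood, robust, TMM, no covariate, Benjamini-Hochberg); its default filter kept 20734 genes. SE is the size of the log2 fold change over the square root of F. The code was tested on simulated data. No 2 libraries of a group agreed within sampling noise: chi-square per degree of freedom was 3.18 to 8.76.

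All 10 members are named, with up to 3 called genes of lowest p per list at a mean log2 CPM of at least 1. The largest change each way per list and the genes behind any count of 5 or fewer are also named. ISCA2, GLRX5, HMOX1, GPX4, CUL1, PCBP1, RC3H1, RC3H2, ZC3H12A, ABCB6 and BEST1 were chosen for naming once their values were known. So were untested genes and the named cell type markers. Not every gene that this naming covers is reported here. Members and lists were chosen with earlier results of these data known. Alternatives were DESeq2 size factors, upper-quartile factors, no or a stricter filter (1 CPM in 3 libraries), DESeq2 1.42.0, a replicate block, each library left out, and added pseudogene counts.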

Additional observations from a re-analysis of the deposited data

How the results depend on the processing

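Of the 9 tested members, FTH1, FTL, TFRC, SLC11A2, STEAP3 and ACO1 stayed called and IREB2 uncalled, each with 1 direction, under all alternatives run. FTH1 ranged from 0.80 to 0.87, FTL from 0.20 to 0.26, TFRC from 0.12 to 0.17, SLC11A2 from 0.39 to 0.44, STEAP3 from -0.27 to -0.20, ACO1 from -0.29 to -0.25 and IREB2 from 0.03 to 0.09 (log2). With a library left out, NCOA4 ranged from 0.085 to 0.142 and TFR2 from 0.054 to 0.29 (log2), and 4 to 6 members were called higher and 2 lower; the cause was not tested. The FTH1 to FTL difference ranged from 0.59 to 0.61. Same-numbered libraries did not deviate together (correlations -0.12, -0.04 and 0.00). With 3 libraries per group this cannot tell whether a number marks a shared culture or day. With a replicate block, 5 members were higher and 2 lower, and 6279 genes were higher and 6196 lower over all genes, against 6426 and 6356 without it. No library's deviations correlated best with those of its own number in the other group. Scaling moved the median of all genes by less than 0.1 (log2). Depth limits SLC40A1 (8 counts in all).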
